A study of Mus musculus with 6 samples.

Results

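The genes described are 10 members of the machinery that marks mitochondria for autophagy: Bnip3, Bnip3l, Fundc1 and Bcl2l13, which encode receptors on the outer mitochondrial membrane, Pink1, which encodes a kinase, and Gabarap, Gabarapl1, Gabarapl2, Map1lc3a and Map1lc3b, which encode the ATG8 proteins of the autophagosome. They were chosen by symbol, out of 54532 gene IDs in the gene tables and 21950 in the transcript tables, and all 10 were found in all 6 files. Levels came from 3 libraries of wild-type 3T3-L1 cells exposed to chronic intermittent hypoxia (CIH, repeated spells of low oxygen) and 3 libraries of wild-type 3T3-L1 control cells. 3T3-L1 is a single mouse fibroblast line that turns into fat cells in culture, and all 6 libraries carry the adipocyte label. Serum was 10% in both groups; insulin started differentiation, and medium with 0.1 µM insulin was kept on the cells until day 8. The sources used here do not give the depth and length of the oxygen cycles or the moment of harvest. No label says that replicates were separate cultures, so a p-value here measures the spread between libraries, which may be technical.

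Mitophagy is the selective removal of mitochondria by autophagy. In 1 route, receptors that sit in the outer membrane bind ATG8 proteins on the growing autophagosome through a short motif in their cytosolic part. Bnip3 and its paralog Bnip3l (also called Nix) are known targets of hypoxia-inducible factors, and Fundc1 is a receptor whose activity in low oxygen is known to be set mainly by phosphorylation. In the other route, PINK1 accumulates on damaged mitochondria and starts their marking with ubiquitin. ATG8 proteins fall into the GABARAP and LC3 subfamilies, are joined to phosphatidylethanolamine in the autophagosome membrane, and serve other kinds of autophagy as well as mitophagy.

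The 300 bases around the start sites of 3 genes are shown, because these genes include the receptor and the ATG8 gene with the largest changes in replicates 1 and 2 (Bnip3 and Map1lc3b) and an ATG8 gene that also fell there (Gabarapl1). Sequences are RefSeq's, build GRCm38.p6, from 250 bases before to 50 bases after the annotated start, 5′ to 3′ on the gene's strand. Capitals mark ACGTG or GCGTG on either strand, the core letters of the element bound by hypoxia-inducible factors.
Bnip3 (chr7:138909457-138909756, minus strand): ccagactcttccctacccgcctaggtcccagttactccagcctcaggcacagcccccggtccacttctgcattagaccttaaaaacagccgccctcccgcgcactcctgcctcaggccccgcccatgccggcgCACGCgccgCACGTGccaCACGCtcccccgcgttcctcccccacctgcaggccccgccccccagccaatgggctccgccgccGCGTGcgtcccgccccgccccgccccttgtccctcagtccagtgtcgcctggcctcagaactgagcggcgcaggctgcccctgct
Map1lc3b (chr8:121590188-121590487, plus strand): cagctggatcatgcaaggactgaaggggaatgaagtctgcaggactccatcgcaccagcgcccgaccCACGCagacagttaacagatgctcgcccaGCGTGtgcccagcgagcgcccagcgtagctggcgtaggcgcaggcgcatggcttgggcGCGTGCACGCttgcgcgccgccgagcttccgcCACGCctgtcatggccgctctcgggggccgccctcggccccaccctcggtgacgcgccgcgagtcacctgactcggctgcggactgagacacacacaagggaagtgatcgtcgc
Gabarapl1 (chr6:129532942-129533241, plus strand): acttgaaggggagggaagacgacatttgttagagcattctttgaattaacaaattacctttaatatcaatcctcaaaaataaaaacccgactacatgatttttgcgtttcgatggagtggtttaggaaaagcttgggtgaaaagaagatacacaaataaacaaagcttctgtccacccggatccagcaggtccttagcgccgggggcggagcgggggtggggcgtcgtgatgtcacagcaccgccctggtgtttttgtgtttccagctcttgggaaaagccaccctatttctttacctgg
The Bnip3 window held these letters at 5 positions, 2 of which come from 1 palindrome, CACGTG, read on both strands. Map1lc3b also held 5 positions, all GCGTG, and Gabarapl1 held 0. At least 5 positions occurred in 1.66% and at least 1 in 43.8% of the 32851 promoters in the RefSeq table. Bases G and C made up 71.7% of the Bnip3 window, 68.0% of that of Map1lc3b and 46.3% of that of Gabarapl1. Among the other members in the table, Bcl2l13, Pink1, Gabarap and Gabarapl2 each held 1 position and Fundc1 held 0. A match in letters is not evidence of binding.

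All levels are FPKM, read fragments scaled to transcript length and library size. Replicates 1 and 2 of both groups are gene tables with 1 value per gene, of about 26160000 and 27440000 fragments in CIH 1 and 2 and about 25730000 and 27990000 in control 1 and 2. Replicate 3 of both groups is a transcript table with 1 or more fractional values per gene, and its depth is unknown. Where a gene had more than 1 value they were summed, while Bnip3, Gabarapl2 and Map1lc3a had 1 value each. The kinds of table were made in different ways. CIH 1 and 2 were therefore compared with control 1 and 2, and CIH 3 with control 3. No member's level is compared across. Log2 levels correlated across 10976 genes at 0.997 between CIH 1 and 2, 0.995 between control 1 and 2 and 0.756 between CIH 3 and control 3, and genes are not independent replicates. Across the kinds of table CIH 3 stood apart, at 0.616 with CIH 1 and 0.625 with CIH 2. Control 3 was at 0.802 with control 1 and 0.797 with control 2. Mitochondrially encoded genes took 22.4% of the summed FPKM in CIH 3 and 43.7% in control 3, against 11.2% to 16.3% in the gene tables. The 14 white adipocyte markers summed to 9717 and 8689 FPKM in CIH 1 and 2 and 9960 and 10380 FPKM in control 1 and 2. Their medians differed more, at 265.7 and 251.2 FPKM in CIH 1 and 2 and 500.1 and 438.9 FPKM in control 1 and 2. The same markers summed to 781 FPKM in CIH 3 and 33420 FPKM in control 3, with none at 0. The 10 preadipocyte and fibroblast markers summed to 240.3 and 246 FPKM in CIH 1 and 2, 195 and 208 FPKM in control 1 and 2, 3859 FPKM in CIH 3 and 428 FPKM in control 3. Macrophage markers summed to at most 4.67 FPKM and endothelial markers to at most 1.02 FPKM in any library, with Adgre1, Tyrobp and Emcn at 0 in all 6. Genes known to be induced by low oxygen were lower in the libraries labelled CIH 1 and 2 than in those labelled control 1 and 2, with 19 of 19 tested genes besides the members called lower. Whether the group labels are right was not tested: they were used as given, and the direction of every change below rests on them. In bulk RNA, fewer cells of a type and less RNA per cell cannot be told apart.

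In replicates 1 and 2, Bnip3 was the member that differed most: its RNA was lower in CIH by 2.15 on the log2 scale, and Map1lc3b, Gabarapl1, Bnip3l and Pink1 were lower by 0.55 to 0.94. Gabarap was higher by 0.34, and Fundc1, Bcl2l13, Gabarapl2 and Map1lc3a were not called. By limma on log2(FPKM + 1), called at an adjusted p under 0.05, 5 of the 10 members were lower in CIH, where 21.7% of 10981 tested genes were, and 1 was higher, where 20.2% were. All 10 members passed the filter of a mean of at least 1 FPKM. Their median change was −0.34, against −0.01 for all tested genes. Equalising the totals moved the median of all genes to −0.12. The calls among the 10981 genes went from 2216 higher and 2387 lower to 1558 higher and 3381 lower. Among the members, 5 were still called lower and 0 higher. Without CIH 1, the changes were −2.26 for Bnip3, −0.96 for Map1lc3b and −0.85 for Gabarapl1. They were −0.76 for Bnip3l, −0.64 for Pink1 and 0.24 for Gabarap. CIH 2 then stands alone and is assumed to vary like the controls. In the replicate 3 pair, with 1 library per group and no test, 3 of 10 members (Bnip3, Bcl2l13 and Gabarapl2) were at least 2-fold lower in CIH 3, where 11.3% of 11620 genes were, and 0 were at least 2-fold higher, where 23.6% were. With equal totals 2 members were at least 2-fold lower, beside 5.89% of genes, and 0 higher, beside 44.1%; by the median of ratios 5 were lower, beside 15.8%, and 0 higher, beside 17.0%. The median change of all genes in that pair was 0.31 and that of the members −0.61. All 13 tested white adipocyte markers were at least 2-fold lower and all 9 tested preadipocyte markers at least 2-fold higher in CIH 3. In replicates 1 and 2, 6 of 13 white adipocyte markers were lower and 1 higher, and 6 of 9 preadipocyte markers were higher and 2 lower. The part of these markers in the members' differences was not tested.

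**Figure D1:**
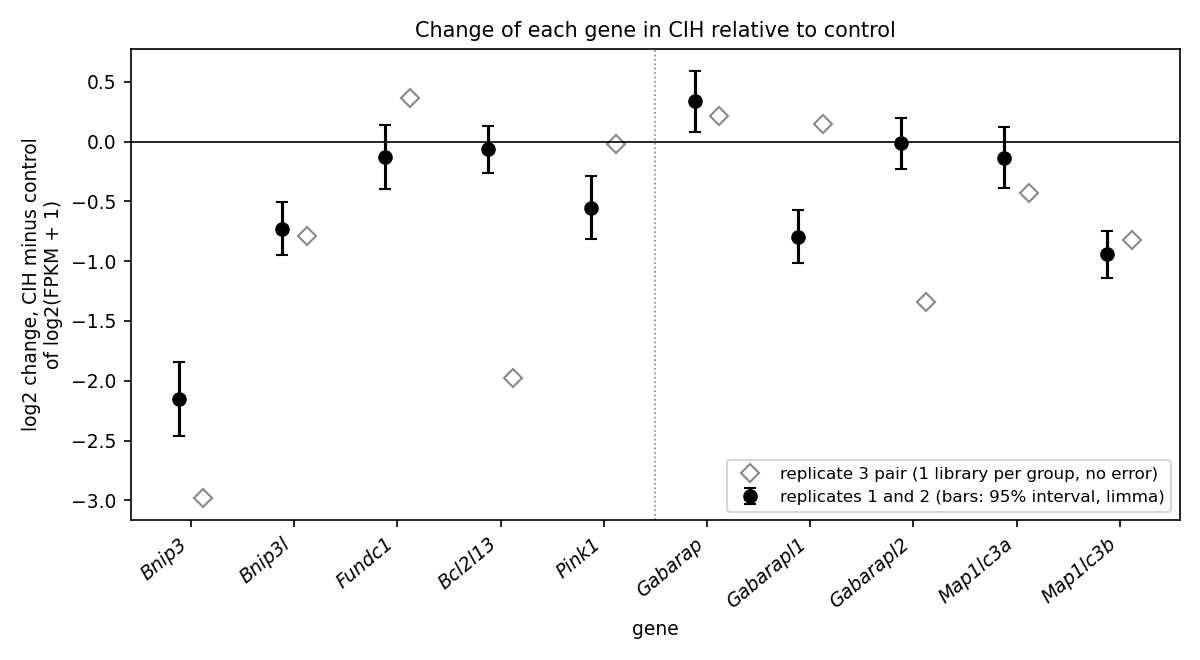
Change in CIH relative to control for the 10 genes, on the log2(FPKM + 1) scale; filled points with 95% intervals are replicates 1 and 2 (limma), open diamonds are the replicate 3 pair, which has no error. Bnip3 lies lowest in both, at −2.15 and −2.98, while Gabarapl1 lies at −0.79 in replicates 1 and 2 and at 0.15 in the replicate 3 pair.

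Bnip3 encodes a receptor of the BCL2 family that is anchored in the outer mitochondrial membrane (ENSMUSG00000078566, chromosome 7, 138890836 to 138909519, minus strand, GRCm38). Its level was 104 and 89.2 FPKM in CIH 1 and 2, against 473 and 394 FPKM in control 1 and 2. Both CIH libraries lay far below both controls, without overlap. The change was −2.15 (SE 0.132, limma adjusted p = 5.93e-05), a 4.45-fold fall on that scale, and it ranked 36 among the 10981 tested genes ordered from the largest fall. Replicate 3 had Bnip3 at 39.1 FPKM in CIH 3 and 316 FPKM in control 3, a difference of −2.98. That was the largest difference of any member in the pair, and 3.27% of genes there differed by more in size. Control 1 and 2 had Bnip3 among their most abundant genes, at ranks 66 and 84, against ranks 518 and 546 in CIH 1 and 2. Its promoter is the window printed above with the CACGTG palindrome, and binding there was not measured.

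Bnip3l encodes the paralogous receptor, known for clearing mitochondria from maturing red cells (ENSMUSG00000022051, chromosome 14, 66985239 to 67008877, minus strand). It was 37.4 and 35.8 FPKM in CIH 1 and 2 and 64.3 and 58.3 FPKM in control 1 and 2, so that the groups did not overlap. It fell by 0.73 (SE 0.0933, limma adjusted p = 0.00123). Levels of 47.6 FPKM in CIH 3 and 82.9 FPKM in control 3 gave a difference of −0.79, which was −0.17 with equal totals and −1.13 by the median of ratios. The ratio of Bnip3 to Bnip3l was 2.78 and 2.50 in CIH 1 and 2 and 7.36 and 6.76 in control 1 and 2. It was 0.821 in CIH 3 and 3.81 in control 3, so Bnip3l exceeded Bnip3 in CIH 3.

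Fundc1 (ENSMUSG00000025040, chromosome X, 17556564 to 17572325, minus strand) had 14.8 and 14.0 FPKM in CIH 1 and 2, against 17.7 and 14.2 FPKM in control 1 and 2. The groups overlapped, and the change of −0.13 (95% interval −0.40 to 0.14) was not called (limma adjusted p = 0.391). It was 33.4 FPKM in CIH 3 and 25.8 FPKM in control 3. Bcl2l13, a mammalian receptor known for its likeness in function to the yeast mitophagy receptor Atg32, lies on chromosome 6 (ENSMUSG00000009112, 120836212 to 120892842, plus strand). Its levels were 37.3 and 36.7 FPKM in CIH 1 and 2 and 38.6 and 38.9 FPKM in control 1 and 2. Both CIH libraries lay just under both controls, and the change of −0.07 (95% interval −0.26 to 0.13) was not called (limma adjusted p = 0.555). Bcl2l13 was 34.3 FPKM in CIH 3 and 138 FPKM in control 3, a difference of −1.98. All 3 transcript entries of the gene were lower in CIH 3, at 12.9, 0 and 21.3 FPKM, against 52.1, 2.39 and 83.2 FPKM in control 3. The difference between the kinds of table was not tested.

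Pink1 encodes the kinase that flags damaged mitochondria (ENSMUSG00000028756, chromosome 4, 138313409 to 138326307, minus strand). Its level was 32.2 and 28.4 FPKM in CIH 1 and 2, against 41.3 and 48.5 FPKM in control 1 and 2. Both CIH libraries lay under both controls, and the gene fell by 0.55 (SE 0.112, limma adjusted p = 0.00781). With no filter on low values the adjusted p of Pink1 was 0.0626, in a fit of 24416 genes. The replicate 3 pair had near-equal levels of 35.5 FPKM in CIH 3 and 35.9 FPKM in control 3.

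**Figure D2:**
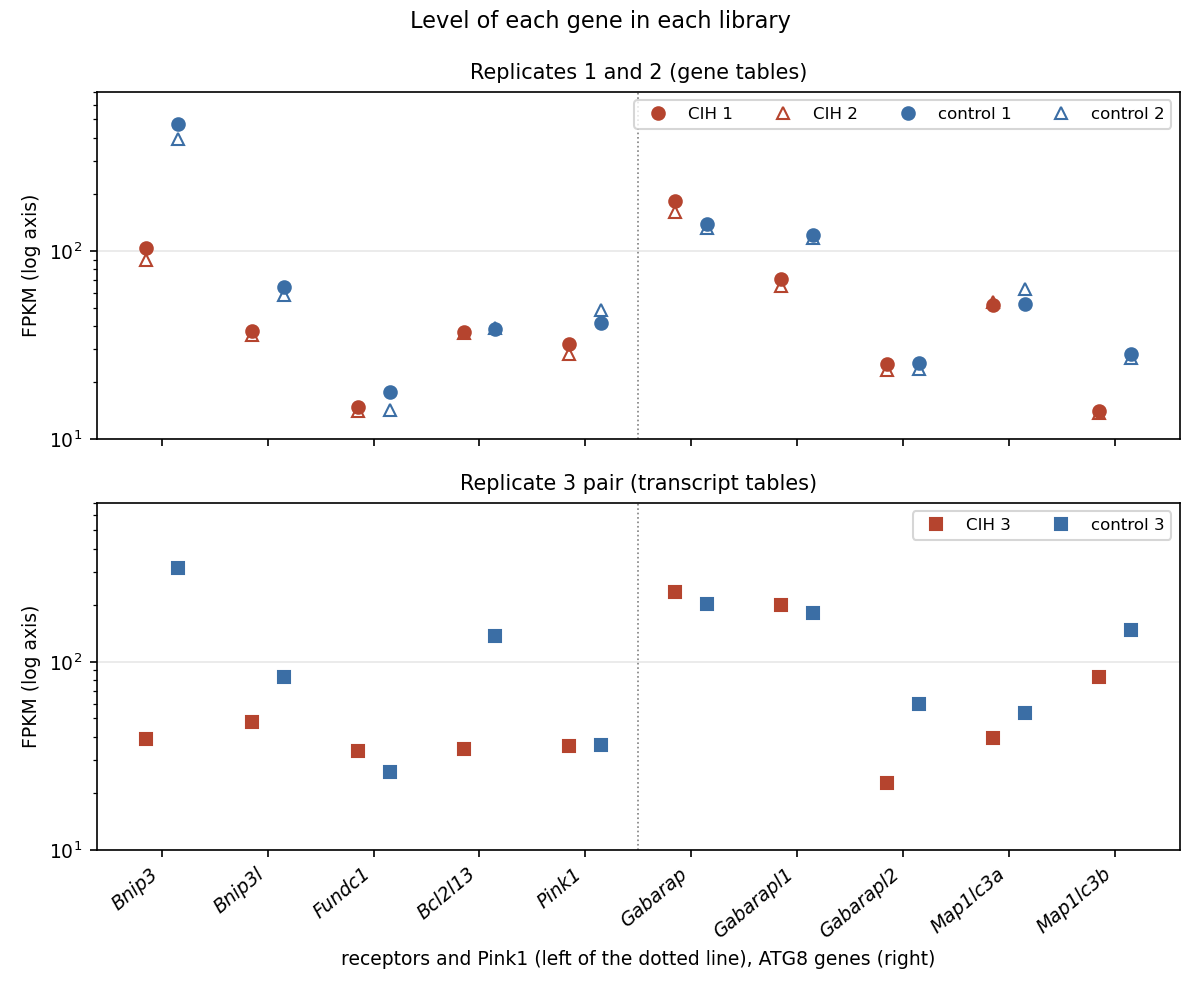
FPKM of the 10 genes on a log axis in each library, with CIH libraries left of controls for every gene; the upper panel shows replicates 1 and 2 and the lower panel the replicate 3 pair. Bnip3 separates the groups most in both panels, and Bcl2l13 is nearly level in the upper panel but 34.3 FPKM in CIH 3 and 138 FPKM in control 3 in the lower one.

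The GABARAP subfamily moved in both directions in replicates 1 and 2. Gabarapl1, known as an early-response member induced by FOXO factors in muscle (ENSMUSG00000030161, chromosome 6, 129533160 to 129542346, plus strand), was 70.8 and 65.2 FPKM in CIH 1 and 2 and 121 and 116 FPKM in control 1 and 2. The groups were well apart, with a fall of 0.79 (SE 0.0949, limma adjusted p = 0.000926). The direction differed in replicate 3, where Gabarapl1 was 201 FPKM in CIH 3 and 182 FPKM in control 3. Of its 4 transcript entries there, 3 were higher and 1 lower in CIH 3. Entry 2 was 42.4 FPKM in CIH 3 and 54.2 FPKM in control 3, and the most abundant, entry 3, was 149 FPKM in CIH 3 and 123 FPKM in control 3.

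Gabarap encodes the founding member of that subfamily (ENSMUSG00000018567, chromosome 11, 69991143 to 69994951, plus strand). It had 184 and 161 FPKM in CIH 1 and 2 and 139.7 and 132 FPKM in control 1 and 2, without overlap. Its change of 0.34 (SE 0.108) passed the threshold narrowly (limma adjusted p = 0.0409) and no longer did so without CIH 1 (0.207), control 1 (0.0769) or control 2 (0.137), with equal totals (0.0793), with no filter (0.122) or with a replicate block (0.0622). Over the alternatives fitted on the 4 gene-table libraries its adjusted p ranged from 0.0175 to 0.207, with a positive change in all 14. Gabarap was 234 FPKM in CIH 3 and 202 FPKM in control 3. Gabarapl2 (also called GATE-16; ENSMUSG00000031950, chromosome 8, 111940703 to 111953612, plus strand) was 25.1 and 23.1 FPKM in CIH 1 and 2 and 25.2 and 23.5 FPKM in control 1 and 2. Its groups overlapped almost wholly, with a change of −0.01 (95% interval −0.23 to 0.20, limma adjusted p = 0.916). Gabarapl2 was 22.8 FPKM in CIH 3 and 59.5 FPKM in control 3, a difference of −1.35.

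Map1lc3b encodes LC3B, the ATG8 protein most used as a marker of autophagosomes (ENSMUSG00000031812, chromosome 8, 121590361 to 121598760, plus strand). Its level was 14.1 and 13.8 FPKM in CIH 1 and 2, against 28.4 and 27.0 FPKM in control 1 and 2. Each pair of replicates lay close together and the groups far apart, giving a fall of 0.94 (SE 0.0832, limma adjusted p = 0.000255). The replicate 3 pair showed 82.6 FPKM in CIH 3 and 147 FPKM in control 3, a difference of −0.82. That difference was −0.20 with equal totals and −1.17 by the median of ratios. With the highest transcript entry of Map1lc3b in place of the sum it was −0.35. Entry 1 of its 3 transcript entries held 24.4% of the gene's level in CIH 3 and 43.0% in control 3, at 20.1 and 63.3 FPKM. Map1lc3a, which encodes LC3A (ENSMUSG00000027602, chromosome 2, 155276297 to 155278073, plus strand), was 51.6 and 53.2 FPKM in CIH 1 and 2 and 52.5 and 63.0 FPKM in control 1 and 2. These groups overlapped, and the change of −0.13 (95% interval −0.39 to 0.12) was not called (limma adjusted p = 0.359). It was 39.5 FPKM in CIH 3 and 53.5 FPKM in control 3.

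The summed level of the 5 ATG8 genes was 346 and 316 FPKM in CIH 1 and 2 and 367 and 362 FPKM in control 1 and 2. The shares of its members differed. In the gene tables this sum and the shares depend on the exon lengths used. Map1lc3b, at 7517 bases, had more fragments there than Map1lc3a, at 1181 bases, but a smaller share of the sum. Gabarap held 53.3% and 50.9% of that sum in CIH 1 and 2, against 38.1% and 36.6% in control 1 and 2. Gabarapl1 held 20.5% and 20.6% in CIH 1 and 2, against 33.0% and 32.1% in control 1 and 2. Map1lc3b held 4.07% and 4.35% in CIH 1 and 2 and 7.74% and 7.46% in control 1 and 2. Gabarap held 40.4% of the sum in CIH 3 and 31.4% in control 3, and Map1lc3b 14.2% in CIH 3 and 22.8% in control 3, whereas the share of Gabarapl1 was 34.7% in CIH 3 and 28.2% in control 3. Shares of a sum are not independent of each other, and no test was made of them.

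**Figure D3:**
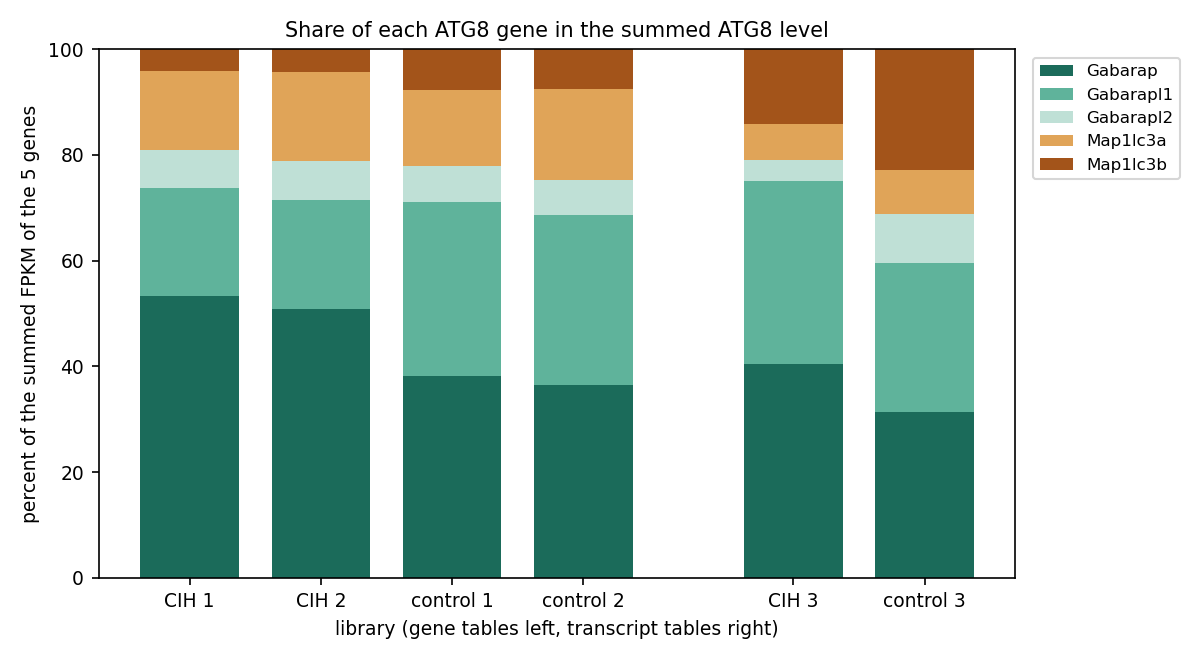
Stacked bars of the share of each ATG8 gene in the summed FPKM of the 5, by library, with gene tables left of the gap and transcript tables right of it. Gabarap takes 53.3% and 50.9% in CIH 1 and 2, against 38.1% and 36.6% in control 1 and 2, and Map1lc3b takes 14.2% in CIH 3 and 22.8% in control 3.

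The summed level of the 4 receptors was 193 and 176 FPKM in CIH 1 and 2, against 593 and 505 FPKM in control 1 and 2. Bnip3 made up 53.7% and 50.8% of it in CIH 1 and 2 and 79.7% and 78.0% in control 1 and 2. These shares depend on the merged exon lengths used, 2265 bases for Bnip3 and 9089 bases for Bcl2l13. In fragments, Bcl2l13 had 8858 and 9155 in CIH 1 and 2, above the 6152 and 5546 of Bnip3. In control 1 and 2 it had 9028 and 9895, below the 27554 and 24981 of Bnip3. For CIH 3 the sum was 154 FPKM, of which Bnip3 held 25.3%, and for control 3 it was 562 FPKM, of which Bnip3 held 56.2%.

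By FPKM in CIH 1 and 2, the members ran from Gabarap through Bnip3, Gabarapl1 and Map1lc3a to Bnip3l and Bcl2l13, which overlapped each other, then Pink1, Gabarapl2, and last Fundc1 and Map1lc3b, which also overlapped. In control 1 and 2 the order was Bnip3, Gabarap, Gabarapl1, then Bnip3l and Map1lc3a, which overlapped, then Pink1, Bcl2l13, Map1lc3b, Gabarapl2 and Fundc1. Places in these orders depend on the gene lengths used, as that of Map1lc3b does. Its values in the gene tables are whole fragments divided by a merged exon length of 7517 bases, against 1181 bases for Map1lc3a. Map1lc3b had 2768 and 2838 fragments in CIH 1 and 2 and 5485 and 5685 in control 1 and 2, more than the 1593 and 1723 in CIH 1 and 2 and the 1596 and 2082 in control 1 and 2 of Map1lc3a. In both transcript tables its FPKM exceeded that of Map1lc3a. Across members and gene-table libraries, fragments ranged from 906 for Fundc1 in CIH 2 to 27554 for Bnip3 in control 1.

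Some members share sequence with other genes, so that fragments could be split between them. A search of transcripts at 95% identity or more over at least 200 bases found Bnip3l-ps, a transcribed pseudogene of Bnip3l on chromosome 12 that is 99.4% identical over 1131 bases. It carried 258 and 324 fragments in CIH 1 and 2 and 516 and 562 in control 1 and 2, against 3772 and 3786 in CIH and 6382 and 6298 in controls for Bnip3l itself. Gm6055, a pseudogene that matches Map1lc3b at 99.7% over 378 bases, carried 193 and 224 fragments in CIH 1 and 2 and 246 and 460 in control 1 and 2. Copies of Bnip3 and Gabarapl2 carried at most 45 fragments in any gene-table library. Exons of Bcl2l13 overlap over 628 bases with those of Bid, a pro-apoptotic gene on the opposite strand, which had 2011 and 2187 fragments in CIH 1 and 2 and 999 and 1039 in control 1 and 2. Map1lc3b shares 58 bases with Zcchc14 and Gabarapl1 570 bases with 1700101I11Rik, also on the opposite strand. The sources used here do not say whether counting used the strand, so these shared fragments cannot be assigned.

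Other genes of the pathway were read from lists, with the same fit and the same background shares. Of 22 tested genes of other mitophagy receptors and the PINK1 route, 3 were lower, 4 higher and 15 not called, with a median change of 0.08. Nipsnap2 and Nipsnap1, which encode mitochondrial proteins known to recruit autophagy receptors, differed in direction: Nipsnap2 was 42.9 ± 0.932 FPKM in CIH 1 and 2 and 53.5 ± 2.01 FPKM in control 1 and 2 (SD, n = 2 each; limma adjusted p = 0.026), and Nipsnap1 was 9.02 ± 1.70 FPKM in CIH and 5.92 ± 0.344 FPKM in controls (SD, n = 2 each; limma adjusted p = 0.0147). Fbxl4, part of a ubiquitin ligase known to remove the BNIP3 and NIX proteins, fell by 0.28 (limma adjusted p = 0.0465). Fbxl4 was not lower in the replicate 3 pair, at 10.5 FPKM in CIH 3 and 9.98 FPKM in control 3. Mitochondrial content and biogenesis genes were mostly not called (11 of 16), with 3 higher and 2 lower. Among them Hspd1, the mitochondrial chaperonin, was 822 ± 16.1 FPKM in CIH and 554 ± 25.6 FPKM in controls (SD, n = 2 each; limma adjusted p = 0.00812), and Ppargc1b, a coactivator of mitochondrial genes, fell by 0.81 (limma adjusted p = 0.00231). Hspd1 ran the other way in the replicate 3 pair, at 161 FPKM in CIH 3 and 543 FPKM in control 3, and so did Nipsnap1, at 4.85 FPKM in CIH 3 and 7.35 FPKM in control 3. Ppargc1b was 3.10 FPKM in CIH 3 and 27.6 FPKM in control 3. Of the 16 mitochondrial content genes, 6 were at least 2-fold lower in CIH 3 and 0 at least 2-fold higher, beside 11.3% and 23.6% of all genes. Their median was −0.72, against 0.31 for all genes.

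Autophagy initiation and membrane supply was the pathway list with most genes lower: 13 of 21 were lower, 0 higher and 8 not called, with a median of −0.41. Atg101, a subunit of the ULK1 kinase complex, was 42.4 ± 4.28 FPKM in CIH 1 and 2 and 109 ± 3.72 FPKM in control 1 and 2 (SD, n = 2 each; change −1.35, limma adjusted p = 0.000142). It was also lower in the replicate 3 pair, at 14.3 FPKM in CIH 3 and 50.2 FPKM in control 3. Of the other genes called lower, Atg13, Nrbf2, Atg9a and Tmem41b were also lower in CIH 3. Ulk1, Ulk2, Rb1cc1, Pik3c3, Pik3r4, Atg14 and Wipi1 were higher there as deposited, and Wdr45 was near-equal. Wipi1 was 61.3 FPKM in CIH 3 and 21.9 FPKM in control 3. Of this list 2 of 21 were at least 2-fold lower in CIH 3 and 1 at least 2-fold higher, beside 11.3% and 23.6% of all genes, and its median of 0.15 lay under the 0.31 of all genes. Of 10 tested genes of ATG8 processing and conjugation, 2 were lower, 0 higher and 8 not called. The largest fall was that of Atg4c, a protease that trims ATG8 proteins, by 0.35 (limma adjusted p = 0.0392). Atg4c was not lower in the replicate 3 pair, at 6.65 FPKM in CIH 3 and 6.31 FPKM in control 3.

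Of 8 soluble cargo receptors, 4 were lower and 1 higher. Ncoa4, the receptor for ferritin, was 10.9 ± 0.544 FPKM in CIH and 32.2 ± 2.28 FPKM in controls (SD, n = 2 each; change −1.48, limma adjusted p = 6.24e-05) and was 22.5 FPKM in CIH 3 and 91.3 FPKM in control 3. Sqstm1, which encodes p62, was higher at 293 ± 14.9 FPKM in CIH and 222 ± 22.3 FPKM in controls (SD, n = 2 each; limma adjusted p = 0.0289), and was 381 FPKM in CIH 3 and 228 FPKM in control 3. Of 6 tested receptors for autophagy of the endoplasmic reticulum, Retreg2 was lower and Rtn3 higher. Both ran the other way in the replicate 3 pair, with Retreg2 at 46.3 FPKM in CIH 3 and 23.3 FPKM in control 3, and Rtn3 at 73.5 FPKM in CIH 3 and 190.8 FPKM in control 3. Of 13 genes of autophagosome fusion, 3 were lower, led by Stx17, the autophagosomal SNARE (−0.63, limma adjusted p = 0.00498), and only Vps33a was higher (0.33, limma adjusted p = 0.0223). In the lysosome and TFEB family list 4 of 19 were lower, among them Ctsl, a protease (−0.78, limma adjusted p = 0.00103), and 5 higher, among them Atp6ap1, a proton pump subunit (0.50, limma adjusted p = 0.00504), which is near the 21.7% and 20.2% of all tested genes. In CIH 3, 6 of these 19 were at least 2-fold higher and 0 at least 2-fold lower, beside 23.6% and 11.3% of all genes. The list median of 0.04 lay under the 0.31 of all genes. Ctsl was 230.2 FPKM in CIH 3 and 192 FPKM in control 3, opposite to replicates 1 and 2.

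**Figure D4:**
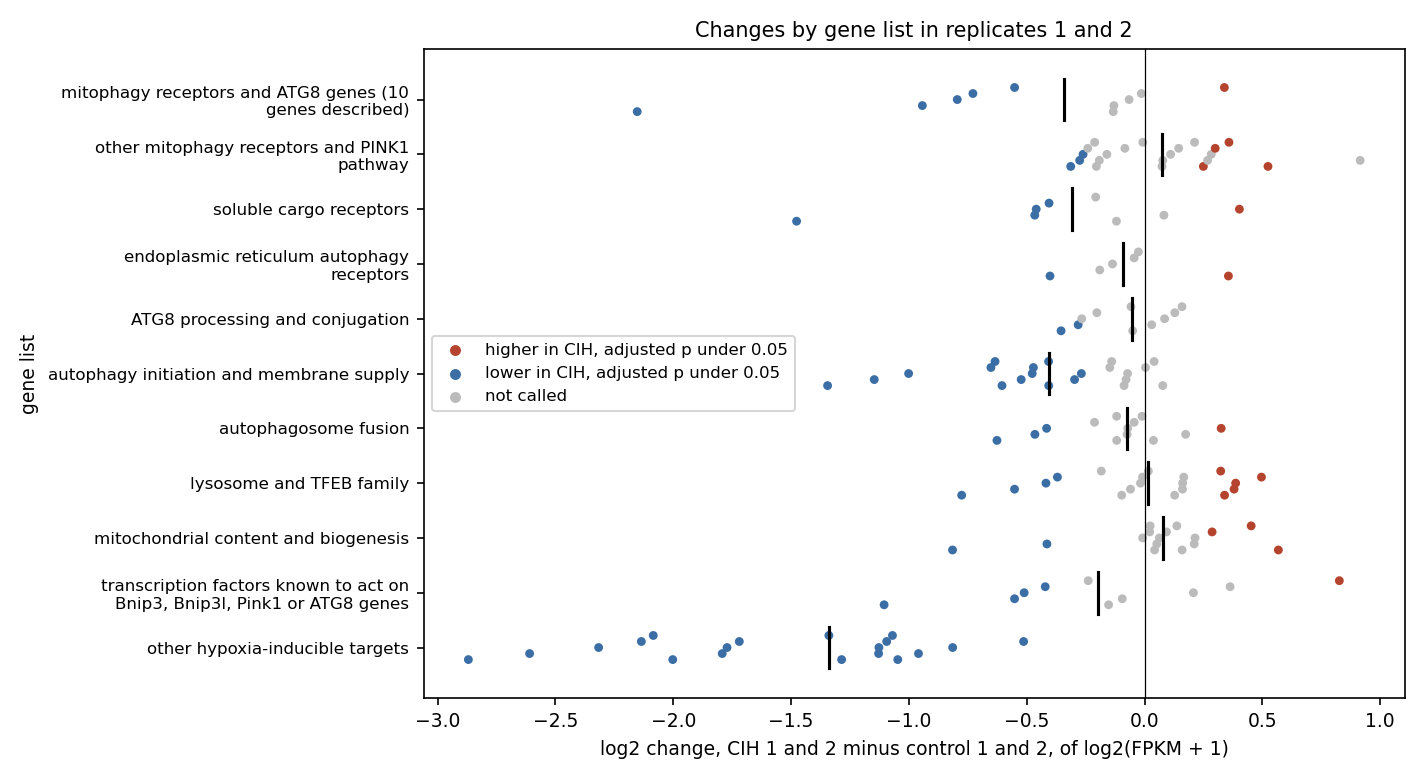
Log2 change of each tested gene in replicates 1 and 2 by list, CIH minus control; blue is lower and red higher in CIH at an adjusted p under 0.05, grey is not called, and black bars are list medians. Bnip3 at −2.15 lies within the range of the other hypoxia-inducible targets, whose median is −1.34, and the other 9 members lie between −0.94 and 0.34.

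Among transcription factors known to act on these genes, 4 of 10 were lower and 1 higher in replicates 1 and 2. Foxo1 was 6.30 ± 0.226 FPKM in CIH and 14.7 ± 0.381 FPKM in controls (SD, n = 2 each; change −1.11, limma adjusted p = 0.000135), and Foxo3, known in muscle as an inducer of Bnip3 and Gabarapl1, fell by 0.42 (limma adjusted p = 0.0185). Foxo1 was 7.14 FPKM in CIH 3 and 15.2 FPKM in control 3, and Foxo3 was 43.8 FPKM in CIH 3 and 19.7 FPKM in control 3. Trp53, which encodes p53, was higher in CIH 1 and 2 (0.83, limma adjusted p = 0.000596). Hif1a, an oxygen-regulated subunit of hypoxia-inducible factor, had a change of 0.36 and Epas1, another such subunit, of −0.15, and neither was called (limma adjusted p = 0.0535 and 0.184). Hif1a was 47.6 FPKM in CIH 3 and 27.0 FPKM in control 3, and Epas1 was 25.5 FPKM in CIH 3 and 55.5 FPKM in control 3. All 19 tested genes among 21 other hypoxia-inducible targets were called lower in the libraries labelled CIH 1 and 2, led by Ankrd37 (−2.87, limma adjusted p = 1.05e-05), with a list median of −1.34. In the replicate 3 pair 6 of 20 of these targets were at least 2-fold lower and 2 at least 2-fold higher, beside 11.3% and 23.6% of all genes, and their median was −0.47, against 0.31 for all genes.

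Likeness of pattern was measured as the distance between genes over the 6 log2 levels, each centred within its kind of table, among 9844 other genes. Genes with provisional symbols (Gm numbers, Rik names or bare gene IDs) are among these but were passed over when the nearest were named. The nearest to Bnip3 were then Cbr2 (distance 0.308), Pnpla3 (0.33), Klf15 (0.36), Apol6 (0.495) and Cyp51 (0.496). Cbr2, a carbonyl reductase, was 24.1 and 20.1 FPKM in CIH 1 and 2, 97.0 and 97.9 FPKM in control 1 and 2, 15.1 FPKM in CIH 3 and 159 FPKM in control 3. The nearest to Map1lc3b were Pqlc3 (0.0255), Acly (0.0948), Rps6ka1 (0.119), Gab2 (0.128) and Zcchc24 (0.133). Acly, the enzyme that makes cytosolic acetyl-CoA, was 82.6 and 85.1 FPKM in CIH 1 and 2 and 170.3 and 168 FPKM in control 1 and 2. These distances rest on 6 libraries and carry no test.

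Differences of the replicate 3 pair depend on the scaling, since its median over all genes moved from 0.31 as deposited to 0.87 with equal totals and 0.00 by the median of ratios. Bnip3 was lower in CIH 3 under each scaling, from −3.33 to −2.36, as were Bnip3l, Bcl2l13, Gabarapl2 and Map1lc3b, and Fundc1 was higher under each. Pink1 (0.60) and Map1lc3a (0.19) were higher in CIH 3 with equal totals, and Gabarap (−0.13) and Gabarapl1 (−0.20) were lower by the median of ratios. Relative to the median of all genes, under which as many genes lie as over it, 9 of 10 members lay lower and Fundc1 lay at 0.05. The 9 include Gabarap (−0.09) and Gabarapl1 (−0.16), which were higher in CIH 3 as deposited, and Pink1 (−0.32), which was near-equal.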

How the data were processed

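RNA of 6 libraries, made from 1.3 µg of total RNA with a directional kit per the labels, was analysed from the deposited FPKM values. The authors made these FPKM tables by steps that no source here describes; the submitters' processing notes list GRCm38, featureCounts 1.5.0-p3 and DESeq 1.8.3 without their roles. The unit was read from the values: in the gene tables, 98.4% to 98.6% of genes under 50 fragments lay within 0.05 of a whole fragment after multiplication by merged exon length (GENCODE mouse release 21). Replicates differed by more than sampling noise (mean chi-square 10.3 in CIH and 15.2 in controls, 1 without a difference). Repeated gene IDs were summed. The 10981 genes that averaged 1 FPKM or more in the 4 gene tables were tested as log2(FPKM + 1) with limma 3.58.1 (R 4.3.3; trend, Benjamini-Hochberg over all genes tested), group alone. The fits were tested on simulated data. Python 3.11.15 and BLAST 2.17.0 were also used. Ppptc7 matched no gene ID and was not analysed here. Named pathway genes were the called gene with the largest change in each direction per list, plus Hif1a, Epas1, Fbxl4, Foxo3 and a gene that is not reported here. The members and lists were chosen with earlier results of these data known.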

Additional observations from a re-analysis of the deposited data

Results flagged for a closer look

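Gabarapl1 was lower in both CIH libraries than in both controls of replicates 1 and 2 (a change of −0.79, limma adjusted p = 0.000926), while in the replicate 3 pair it was higher in CIH 3 by 0.15 on the same scale. It was singled out because the kinds of table give opposite directions for it. Other members differed between them too. Fundc1, which was not called, had −0.13 in replicates 1 and 2 and 0.36 in the pair. Bcl2l13 (−0.07 and −1.98) and Gabarapl2 (−0.01 and −1.35) differed by more in size. These differences were not tested. The rise of Gabarapl1 in the pair amounts to 201 FPKM in CIH 3 and 182 FPKM in control 3, a direction that turned to −0.20 by the median of ratios.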

How the results depend on the processing

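Of the 6 calls among the members, those of Bnip3, Bnip3l, Gabarapl1 and Map1lc3b held in all 14 alternatives fitted on the 4 gene-table libraries or 3 of them (1 took its gene filter from all 6 files), that of Pink1 in 13 and that of Gabarap in 8. Leaving out 1 of the 4 libraries, which leaves a lone library assumed to vary like the other group, gave 5 to 6 members called, and 2611 to 4618 genes called in place of 4603. Without a filter on low values 2540 genes were called. All 6 libraries with the group alone gave 0 genes by limma (490 at an unadjusted p under 0.05) and 0 members. With a term for replicate 3 they gave 63 genes and 1 member, Bnip3. No member's called change reversed in any setting of the gene tables. Whether replicate numbers 1 and 2 pair the samples is not known. Same-numbered libraries deviated from their group means with a correlation of −0.13. With 2 libraries per group the crossed pairing must give 0.13, so these values cannot decide it. A replicate block gave 4191 genes and 5 members, without Gabarap. The crossed pairing, added after the data were seen, gave 4989 genes and 6 members. The replicate 3 pair has 1 library per group, so its values carry no error, and its depth is unknown.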
